A study of Homo sapiens with 5 samples.

Results

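The genes described here are those for voltage-gated calcium and sodium channels and for potassium channels, followed in DRIP-seq peak lists of PC-9 cells. A peak was taken when the deposited gene name began with KCN, CACNA1, CACNA2D, CACNB, CACNG or SCN and the deposited gene type was protein-coding. This gave 437 of the 80323 peaks in the 4 lists, with control 1 giving 166 of 25281, control 2 113 of 23903, exp 1 76 of 16785 and exp 2 82 of 14354. The pattern fits 141 protein-coding genes of the RefSeq table, of which 87 held a peak in at least 1 library and 54 held none by the deposited gene name.

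PC-9 is an established human lung adenocarcinoma line. DRIP-seq recovers sonicated DNA with the antibody S9.6, which binds RNA:DNA hybrids and therefore R-loops, structures of a nascent transcript annealed to its template strand beside the displaced coding strand. The 2 groups were PC-9 cells labelled control and PC-9 cells labelled exp, each with 2 libraries; the design text speaks of cells with FANCI knocked down, and exp was taken as that group. The labels do not say what the control cells received, how FANCI was knocked down or whether the libraries came from separate cultures, so the p-values measure the spread between these libraries, which may be technical. The 1 input library, made without antibody, entered as read counts over each peak.

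Voltage-gated channels open a pore for calcium, sodium or potassium when the membrane potential changes, and are best known from neurons, heart and muscle. Calcium-activated, inwardly rectifying and tandem-pore potassium channels set resting potential and return the membrane to it, and several of them act in epithelia together with the epithelial sodium channel. R-loops form in transcribed DNA and are favoured where the coding strand, which has the sequence of the RNA, is rich in G. RNA levels were not measured here, so neither the loss of FANCI nor which channels PC-9 cells express could be checked; peaks assigned to FANCI numbered 1 and 5 in the control pair and 1 and 0 in exp.

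The exp libraries held fewer channel peaks than the controls, as they held fewer peaks in protein-coding genes altogether. Channel peaks averaged 139.5 ± 37.5 in control and 79 ± 4.24 in exp (SD, n = 2 each), a ratio of 0.566, and the groups did not overlap. An exact permutation test, two-sided, gave p = 0.333, the smallest p that 2 against 2 libraries can reach, so no comparison of single library values here can pass 0.05. Peaks of all protein-coding genes numbered 8969 and 9209 in the control pair and 5543 and 4268 in exp, a ratio of 0.540. As a share of these peaks, channel peaks made up 1.85% and 1.23% in controls 1 and 2 and 1.37% and 1.92% in exp 1 and exp 2, so the groups overlapped (exact permutation p = 0.667). Control 1 and exp 2 had the higher shares, one from each group. When each list was cut to its best 14354 peaks by p, channel peaks numbered 113 and 76 in the control pair and 74 and 82 in exp, and the groups overlapped.

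**Figure D1:**
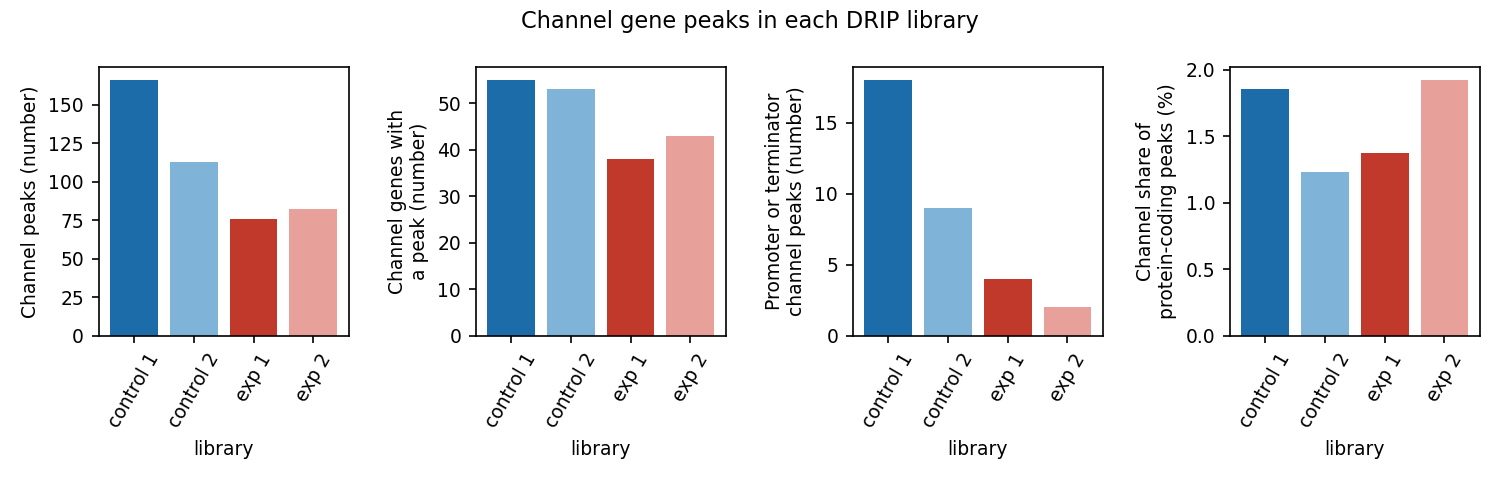
Bars give, for each of the 4 DRIP libraries, the number of channel peaks, of channel genes with a peak, of channel peaks classed as promoter or terminator, and the channel share of protein-coding peaks in percent. The first 3 measures are lower in both exp libraries (76 and 82 peaks against 166 and 113), while the share overlaps between groups (1.37% and 1.92% against 1.85% and 1.23%).

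Counted by gene, 55 and 53 channel genes held a peak in the control pair and 38 and 43 in exp, a ratio of 0.75 with no overlap (exact permutation p = 0.333). Over all protein-coding genes the numbers were 5141 and 5234 against 3743 and 3011. The channel peaks covered 87.8 and 61.9 kb in the control pair and 41.0 and 42.9 kb in exp, at mean widths of 529, 547, 539 and 523 bp that overlapped between groups. The median channel peak held 34, 30, 36 and 26 DRIP reads and 7, 8, 7.5 and 7 input reads, in the order control 1, control 2, exp 1, exp 2, which is kept below. Such depths leave a single peak with wide counting error, and an unlisted peak says only that none was called at this depth.

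Peaks were unevenly spread over the genes. The 10 genes with most peaks held 213 of the 437, or 48.7%, while 30 genes held a single peak in all lists together. Of the 87 genes with a peak, 33 had one in 1 library only, 24 in 2, 12 in 3 and 18 in all 4. As background to the counts by family below, 8430 of the 20056 protein-coding genes of RefSeq (42.0%) held a peak in any library. Differences between families and this share were not tested.

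Among the pore-forming calcium channel genes, 8 of 10 held a peak and 4 did so in every library. CACNA1A, which encodes the pore of P/Q-type channels at nerve terminals, had the most peaks of all channel genes, with 9 and 12 in the control pair and 10 and 8 in exp. Only 5 of the 8732 protein-coding genes with a peak had more, but the gene is long. Per Mb of gene, 30.9% of the 2407 protein-coding genes with at least 4 peaks were denser than CACNA1A. The control and exp counts of CACNA1A overlapped, and its 39 peaks lay in 28 separate regions over 300 kb of chromosome 19. CACNA1I, the pore of a T-type channel that opens near the resting potential, had 10, 3, 2 and 4 peaks, so that control 1 alone stood high. CACNA1C, the L-type pore of heart and smooth muscle, had 4, 6, 3 and 4 peaks, and CACNA1B, the N-type pore, had 4, 2, 3 and 1. CACNA1G, another T-type pore, had 4 peaks in control 1 and none elsewhere. CACNA1F and CACNA1H had none.

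Accessory calcium channel genes held peaks in 14 of 16 cases, with 43 and 27 peaks in the control pair and 23 and 26 in exp. Most came from genes of the gamma family, whose members include both calcium channel subunits and proteins that escort AMPA-type glutamate receptors to the synapse. CACNG7 had 13, 8, 6 and 7 peaks, CACNG8 had 8, 8, 5 and 4, and CACNG6 had 4, 4, 3 and 2. CACNG2, known as stargazin, had 9 and 7 peaks in control 1 and exp 2 but 1 each in control 2 and exp 1. The high libraries of CACNG2 thus came from both groups. The 2 other channel genes of chromosome 22 together had 13, 4, 2 and 5 peaks, high in control 1 alone. CACNB2, a beta subunit that carries the pore to the membrane, had 3, 2, 1 and 1 peaks, and CACNA2D4, an alpha2delta subunit known from the retina, had 1 in each library.

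Voltage-gated potassium pore genes, the most numerous kind, held peaks in 21 of 40 cases, with 27 and 25 peaks in the control pair and 10 and 8 in exp. KCNC1, a fast channel of rapidly firing neurons, had 3, 5, 1 and 0 peaks. KCNQ3, a subunit of the M-channel that restrains neuronal firing, had 1, 4, 2 and 2 peaks. KCNG2, a modulatory subunit that forms no channel by itself, had 2, 1, 1 and 1.

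The calcium- and sodium-activated potassium channel genes held peaks in 7 of 8 cases. KCNMA1, the large-conductance calcium-activated channel found in smooth muscle and epithelia, had 11, 5, 5 and 4 peaks, of which control 1 alone was high. KCNN3, a small-conductance calcium-activated channel, had 4, 3, 2 and 2. Inward rectifiers held peaks in 9 of 16 cases, led by KCNJ12 with 4, 1, 1 and 1 and KCNJ18 with 2, 1, 1 and 2. KCNJ12 and KCNJ18 are near-identical copies, so reads of one may have been placed on the other and their values are uncertain. Tandem-pore (KCNK) genes held peaks in 10 of 15 cases with at most 5 peaks in any library over the whole family.

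Potassium channel accessory genes held peaks in 7 of 17 cases, and their 14 peaks in control 1 against 2, 3 and 4 elsewhere came mostly from KCNIP1, with 6, 0, 0 and 2, and KCNIP3, with 4, 0, 1 and 1. KCNMB1 lies within KCNIP1, so the gene given to a peak there is uncertain. Sodium channel pore genes held peaks in 4 of 10 cases, near the 42.0% of all protein-coding genes, with 0, 4, 3 and 2 peaks. SCN1A, SCN3A, SCN4A, SCN7A and SCN9A were among those that held none. The pattern also takes in the subunits of the epithelial sodium channel, which absorbs sodium across airway and kidney epithelium and is not voltage-gated. SCNN1B had 4 and 4 peaks in the control pair and 2 and 2 in exp, and SCNN1A had 3, 0, 1 and 1.

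**Figure D2:**
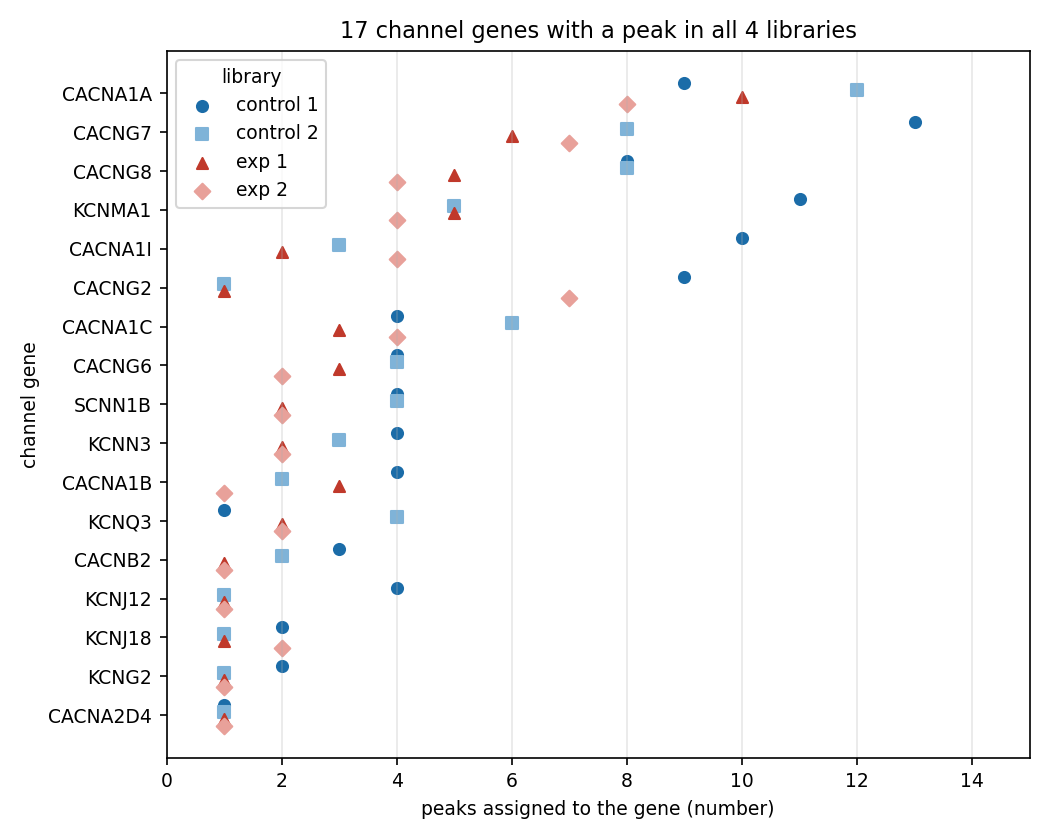
Each point is the number of peaks assigned to a gene in 1 of the 4 DRIP libraries, for 17 of the 18 channel genes with a peak in every library. CACNA1A has 8 to 12 peaks per library with mixed groups, KCNMA1 and CACNA1I are high in control 1 alone (11 and 10 peaks), and CACNG2 is high in control 1 and exp 2 (9 and 7 peaks).

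Of the 87 channel genes with a peak, 18 (20.7%) held one in all 4 libraries, where 12.2% of the 8732 protein-coding genes with a peak did so. Channel genes are long, with a median of 55.1 kb against 24.1 kb for all 20056 protein-coding genes of RefSeq. Among genes of at least 100 kb the shares were 12 of 40 (30.0%) for channel genes and 22.3% for all. The difference was not tested, since the genes were chosen with results known.

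Both controls and neither exp library held a peak in 8 channel genes, or 9.20%, close to the 8.86% of all protein-coding genes. Among genes of at least 100 kb it was 3 of 40 (7.50%) beside 7.06% of all. They included KCNQ1, CACNA1E, KCND3, CACNB3, CACNA1S, KCNT1 and KCNK5. In 2 of the 8 the peaks of both controls overlapped. Coordinates are those of the deposited lists, on GRCh38, and whether a peak lies in an exon or an intron was not analysed here. At CACNA1S, the voltage sensor of skeletal muscle, they lay at chr1:201087414-201088048 with 48 DRIP reads and 13 input reads for control 1 and 27 and 12 in control 2. In the other 6 genes the controls had peaks at different places, as in KCNQ1, a potassium channel of heart and epithelia, with peaks at chr11:2584205-2584625 in control 1 and at chr11:2620691-2621158 and chr11:2813653-2814007 in control 2. With genes taken by overlap with the RefSeq gene body, 5 of the 8 remained, and CACNA1E and KCNK5 were among those that did not.

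The reverse pattern was seen in 4 genes, or 4.60%, against 1.29% of all protein-coding genes. All 4 were over 100 kb long, and among genes of at least 100 kb it was 4 of 40 (10%) beside 1.6% of all. These differences rest on 4 genes and were not tested. KCNU1, a sperm potassium channel, had overlapping peaks at chr8:36915929-36916472 with 42 DRIP and 6 input reads in each exp library. KCNJ6, an inward rectifier that G proteins open, had overlapping peaks at chr21:37761015-37761780 with 32 and 37 DRIP reads. CACNA2D2 and CACNG3 had peaks at different places in the 2 exp libraries. KCNU1 alone of the 4 genes had a peak with −log10 q of at least 2 in both exp libraries (8.96 and 2.36), and none reached 5 in both.

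Peaks sharing at least 1 bp were merged across lists into 319 channel regions. Of these 249 (78.1%) were held by 1 library only, against 82.0% of the 22185 regions in all protein-coding genes, and 16 (5.02%) by all 4, against 2%. Without CACNG6, CACNG7 and CACNG8, 9 channel regions were held by all 4. Both controls and neither exp library held 13 (4.08%, background 3.84%), and both exp libraries and neither control held 5 (1.57%, background 0.888%).

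Among the 13 control regions, the strongest, ranked by −log10 q in the weaker library, lay in SCNN1B, at chr16:23378744-23379587, with 36 DRIP and 10 input reads in each control. The next lay in CACNA1I, at chr22:39646016-39646714, with 65 DRIP reads and 7 input reads for control 1 and 24 and 2 in control 2. SCNN1B also held the strongest of the 5 exp regions, at chr16:23365145-23365813, with 39 and 10 reads in exp 1 and 55 and 13 in exp 2. The same gene therefore held a region listed by each group alone.

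The 16 regions held by every library lay in 12 genes, 7 of them in the CACNG6, CACNG7 and CACNG8 cluster. The strongest by its weakest library was in KCNMA1, chr10:77470784-77472515, 166 kb from the RefSeq start, with 164, 101, 79 and 137 DRIP reads and fold enrichments of 7.74, 4.74, 4.86 and 7.69 as the authors deposited them. Its peaks in exp 1 and exp 2 were 675 and 1582 bp wide, so these reads were counted over different lengths. KCNN3 followed at chr1:154755304-154756388 with 84, 54, 99 and 75 DRIP reads. CACNA1A held 1 such region, chr19:13490138-13491118, with 50, 52, 66 and 30 DRIP reads, and CACNG8 held 2, at chr19:53977835-53979834 with 157, 81, 55 and 60 and at chr19:53985713-53986371 with 84, 62, 48 and 41. KCNG2 held 1 at chr18:79885801-79887309 with 63, 35, 38 and 17, CACNG7 held 1 at chr19:53928825-53929615 with 43, 45, 62 and 51 and another at chr19:53916107-53917061 with 56, 83, 37 and 52. The control and exp reads overlapped at KCNMA1, KCNN3, CACNA1A and KCNG2. In unscaled counts, both exp libraries had fewer reads than the controls at both CACNG8 regions and the second CACNG7 region. At the first CACNG7 region they had more. The exp peaks at the CACNG8 regions were also narrower, and those at the first CACNG7 region wider. The fit below, with width and library factors, gave log2 fold changes of exp over control of 0.34 and 0.07 at the CACNG8 regions. At the first and second CACNG7 regions they were 0.05 and 0.18, and no call was made at any of these. How many regions outside the channel genes separated the groups by unscaled reads was not counted.

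DRIP reads could be set side by side only where each library had exactly 1 peak in a region, 1370 over all genes and 14 in channel genes. edgeR's quasi-likelihood test, with the width of each peak as an offset, called 0 of the 1370 at an adjusted p of 0.05 (a share of 0%), and 96 had an unadjusted p under 0.05. None of the 14 channel regions was called and none had an unadjusted p under 0.05. Their median log2 fold change of exp over control was 0.04, and 4 of the 14 were negative. Over all 1370 regions the median was 0.01 and 668 were negative. The library factors were taken from these same regions, which sets the median over all of them near 0. The lowest adjusted p of the 14 was 0.896, at the CACNG8 region from 53977835, with a log2 fold change of 0.34 ± 0.25 (SE). Without the width offset, 8 of the 14 were negative, with a median of -0.37. Regions that a group lost altogether cannot enter this test.

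**Figure D3:**
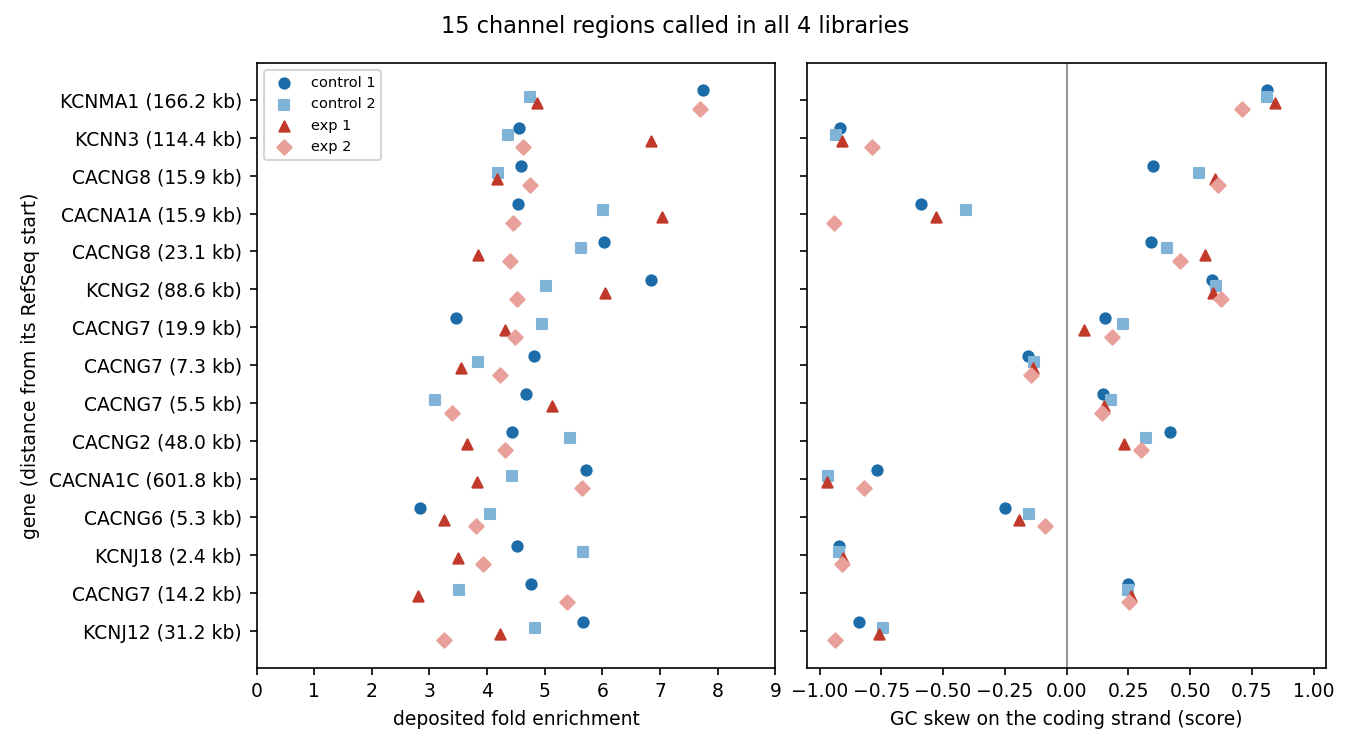
The left panel gives the deposited fold enrichment and the right panel the GC skew on the coding strand for 15 of the 16 channel regions called in all 4 libraries, 1 point per library; labels give the distance of the region from the RefSeq start of the gene. On the coding strand, the regions in KCNMA1 (0.71 to 0.85), KCNG2 (0.59 to 0.625), CACNG8 (0.34 to 0.61) and CACNG2 (0.23 to 0.42) are G-rich in every library. Those in KCNN3, CACNA1A, CACNA1C, KCNJ12 and KCNJ18 are C-rich in every library.

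The regions that recurred were often strongly skewed in base composition. GC skew is a deposited score from -1 to 1, positive where G exceeds C, and was turned here to the coding strand of the gene. The KCNMA1 region had 0.81, 0.81, 0.85 and 0.71, so the coding strand carried G. KCNG2 was also G-rich, with 0.59, 0.60, 0.59 and 0.625, as were both CACNG8 regions, at 0.34 to 0.61, and CACNG2, at 0.23 to 0.42. The opposite sign was found in KCNN3, with -0.92, -0.93, -0.91 and -0.79, in CACNA1C (chr12:2572009-2573207), with -0.77, -0.97, -0.97 and -0.82, and in CACNA1A, with -0.59, -0.41, -0.53 and -0.94. The KCNJ12 and KCNJ18 regions were likewise C-rich on the coding strand, at -0.74 or below and -0.91 or below in every library.

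An absolute skew over 0.5 was found for 9 of the 16 channel regions held by 4 libraries (56.3%), 4 of 14 held by 3, 11 of 40 held by 2 and 36 of 249 held by 1 (14.5%). Over regions in all protein-coding genes the corresponding shares were 54.2%, 29.8%, 14.8% and 5.95%, so strong skew was more frequent in the most widely shared regions of both sets. By peak, 105 channel peaks in 32 genes passed 0.5, 44 of them G-rich and 61 C-rich on the coding strand. The median absolute skew of channel peaks was 0.327 and 0.179 for controls 1 and 2 and 0.195 and 0.283 for exp 1 and exp 2, again highest in control 1 and exp 2, and that of all protein-coding peaks was 0.249, 0.124, 0.140 and 0.170. The median signed skew of channel peaks was 0.03, -0.02, -0.10 and 0.06 and overlapped between groups.

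CACNG7, CACNG8 and CACNG6 lie side by side on the plus strand at chr19:53909278-54012666. These 3 genes span 103 kb and held 72 of the 437 channel peaks (16.5%), with 25 and 20 in the control pair and 14 and 13 in exp. At 981, 916 and 604 peaks per Mb of gene summed over the 4 lists, CACNG7, CACNG8 and CACNG6 were the densest channel genes among those with at least 4 peaks. Of all 2407 protein-coding genes with at least 4 peaks, 1.91% were denser than CACNG7 and 3.66% denser than CACNG6.

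Input reads stood high over the same stretch. The median was 30.7 input reads per kb over the peaks of the 3 genes, 13.6 over the other channel peaks and 13.7 over all protein-coding peaks. Peaks within 500 kb on either side had 31.0, and every 1 Mb bin of chromosome 19 from 52 Mb to the end of the chromosome lay between 25.6 and 34.6, beside a median of 10.9 over the bins from 28 to 40 Mb. Other bins of the chromosome were high as well, with 22.4, 26.8 and 45.7 in those starting at 25, 26 and 27 Mb and 20.7 in that starting at 51 Mb. DRIP reads per input read, each summed over peaks, were 3.03 in the cluster and 4.78 in the other channel peaks. The same ratio was 3.14 over all protein-coding peaks and 3.34 over the peaks within 500 kb on either side. The part of the high input in the number of peaks was not tested. Without the 3 genes, channel peaks numbered 141 and 93 in the control pair and 62 and 69 in exp, a ratio of 0.560.

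**Figure D4:**
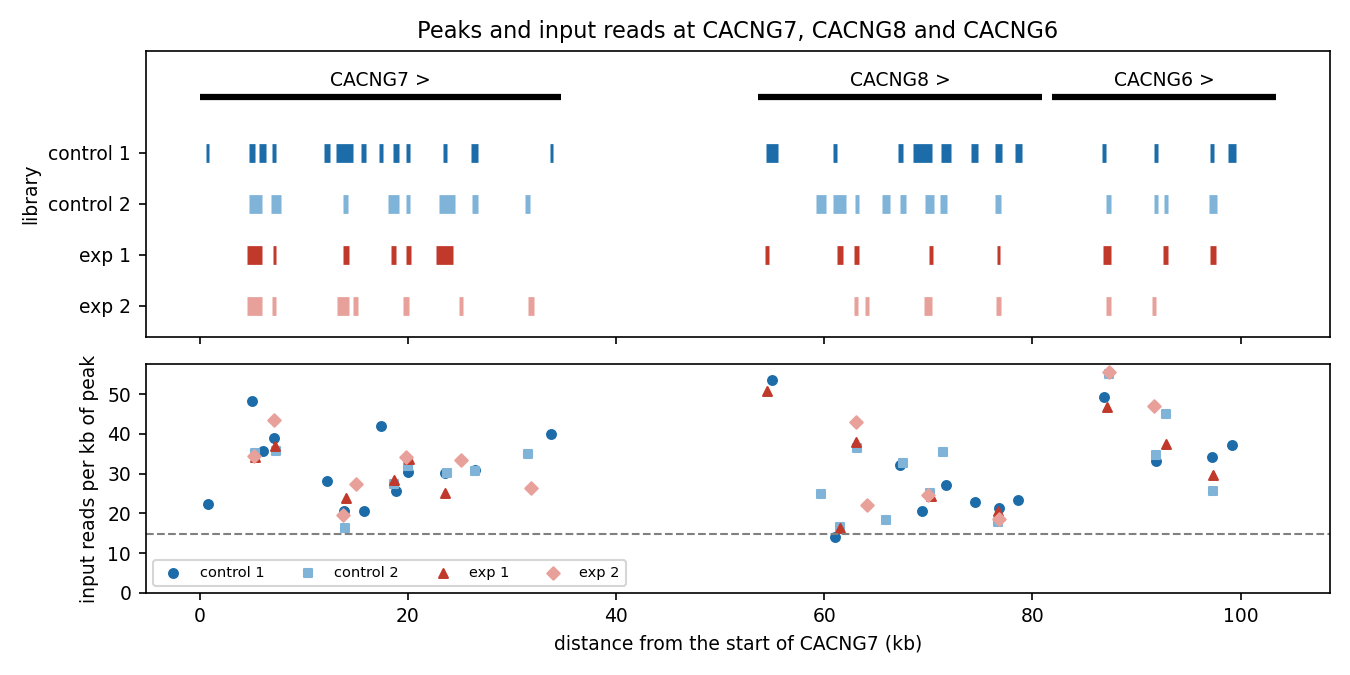
The upper panel shows the peaks of each library as blocks along CACNG7, CACNG8 and CACNG6, by distance in kb from the start of CACNG7, with the genes as black bars transcribed to the right. The lower panel gives the input reads per kb of each peak, most of them above the dashed line at 14.7, the median over all peaks of the 4 lists.

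Peak presence followed gene length, in the channel genes as in all genes. Channel genes with a peak had a median length of 73.8 kb and those without one 24.9 kb. A peak in any library was found in 46.5% of channel genes under 20 kb, 55.6% of those from 20 to 50 kb, 65.9% of those from 50 to 200 kb and 83.3% of those of 200 kb or more. The shares over all protein-coding genes were 24.7%, 45.7%, 60.7% and 76.6%. Across genes, which are not independent replicates, length and number of peaks had a Spearman rho of 0.395 over the 141 channel genes and 0.421 over the 20056 protein-coding genes. Length did not settle the matter for single genes: KCND2 (477 kb), KCNH7 (467 kb) and KCNN2 (441 kb) held no peak in any library, by the deposited gene name or by overlap with the RefSeq gene body, while CACNG6 of 21.5 kb held 13.

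**Figure D5:**
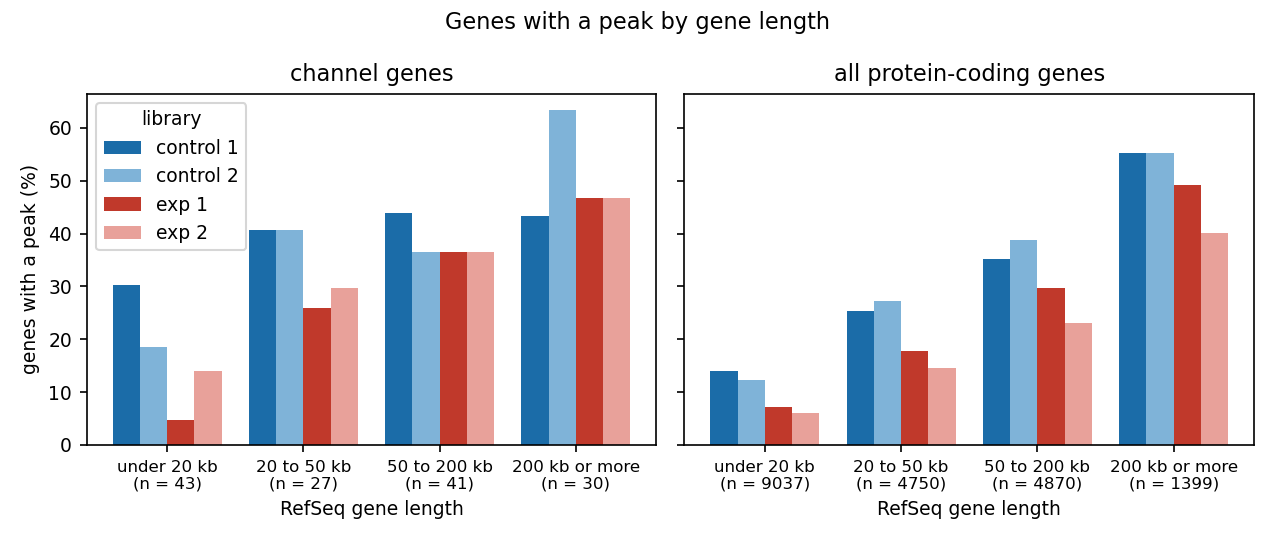
Bars give the percent of genes with a peak in each of the 4 libraries, by RefSeq gene length, for channel genes (left) and all protein-coding genes (right), with the number of genes in each length class. Over all protein-coding genes the percent is higher in each longer class in every library; in channel genes control 2 falls from 40.7% at 20 to 50 kb to 36.6% at 50 to 200 kb, control 1 is level in the longest classes (43.9% and 43.3%), and the shortest channel genes had 30.2% and 18.6% in the control pair against 4.65% and 14.0% in exp.

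Per Mb of gene, channel genes held 8.85 and 6.02 peaks in the control pair and 4.05 and 4.37 in exp, and all protein-coding genes 6.69 and 6.89 against 4.14 and 3.18. Channel genes of at least 100 kb held 5.05, 4.19, 3.14 and 3.27, beside 4.18, 4.33, 2.92 and 2.20 for all such genes. Glutamate and GABA receptor genes, another set of neuronal membrane proteins, held 3.13, 2.56, 1.48 and 1.24 per Mb, fewer than the channel genes in every library when taken over all lengths. Cadherin and protocadherin genes, which encode adhesion molecules, held 4.83, 3.09, 2.50 and 3.09, also fewer in every library on that count. Their genes were longer, with medians of 146 and 108 kb against 55.1 kb, and the order turned within some length classes. Summed over the 4 lists, receptor genes of 50 to 200 kb held 38.4 peaks per Mb against 30.0 for channel genes, and cadherin genes of 200 kb or more 13.9 against 12.3. These differences were not tested.

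Peaks were taken by their deposited gene name, so a peak that the lists gave no gene could not enter. By the deposited classes, whose boundaries the sources used here do not give, few channel peaks touched a promoter or terminator. Gene body alone was the class of 89.2%, 92.0%, 94.7% and 97.6% of channel peaks. Over all protein-coding peaks it was 79.9%, 84.2%, 87.2% and 85.5%. Promoter or terminator classes were given to 18 and 9 channel peaks in the control pair and to 4 and 2 in exp, a ratio of 0.222 with no overlap (exact permutation p = 0.333). Such peaks were fewer in exp over all protein-coding genes too. The exp to control ratio of promoter peaks was 0.167 for channel genes and 0.358 for all, and that of terminator peaks 0.3 and 0.465. Promoter classes covered 7.23% and 5.31% of channel peaks in the control pair and 2.63% and 1.22% in exp, below the 13.4%, 9.63%, 7.38% and 7.92% of all protein-coding peaks in the same libraries.

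KCNC1 was the only channel gene with promoter peaks in both controls. They overlapped at chr11:17731862-17733066, with 70 DRIP reads and 13 input reads for control 1 and 22 and 5 in control 2. Control 2 had a second at chr11:17733493-17733869. The overlapping peaks had midpoints at -2.32 kb (control 1) and -2.07 kb (control 2) from the RefSeq start of KCNC1, and the second at -1.1 kb. CACNA2D4 had peaks classed as promoter and gene body in control 1 and exp 1, which overlapped within chr12:1818810-1819336, inside the gene. CACNG8 had a peak classed as promoter and gene body in control 1 (162 DRIP and 62 input reads) and one classed as promoter alone in exp 1 (59 and 21). At CACNA1A, control 2 and exp 1 shared a terminator peak at chr19:13206233-13206959 with 37 and 27 DRIP reads. Within gene bodies, 45.3% and 44.2% of channel peaks in the control pair and 54.2% and 55.0% in exp lay nearer the start of the gene than its end. The groups did not overlap (exact permutation p = 0.333), and the shares over all protein-coding genes, 48.7%, 50.9%, 52.9% and 48.8%, did overlap.

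RefSeq promoter windows from 250 bases before to 50 after a transcription start were matched for 100 of the 141 channel genes, in 152 windows. Only 2 windows, at KCNMB3 and KCNJ14, were touched by a peak (1.32%, against 2.57% of the 22199 windows of all protein-coding genes). The KCNMB3 window, a beta subunit of the KCNMA1 channel, lay wholly under a control 1 peak at chr3:179259826-179260243 with 35 DRIP and 8 input reads. The deposited list gave that peak no gene and the class intergenic, so it is not among the 437. The KCNJ14 window, of an inward rectifier, was covered over its first 40 bases by a control 2 peak at chr19:48454999-48455363, assigned to GRWD1. Both sequences are printed because they are the only channel promoters under a peak here; they come from RefSeq (GRCh38.p14), run on the coding strand, and capitals mark runs of 4 or more G or C. The first is the whole window on the minus strand, chr3:179259842-179260141, and the second the covered 40 bases on the plus strand, chr19:48455324-48455363.
KCNMB3: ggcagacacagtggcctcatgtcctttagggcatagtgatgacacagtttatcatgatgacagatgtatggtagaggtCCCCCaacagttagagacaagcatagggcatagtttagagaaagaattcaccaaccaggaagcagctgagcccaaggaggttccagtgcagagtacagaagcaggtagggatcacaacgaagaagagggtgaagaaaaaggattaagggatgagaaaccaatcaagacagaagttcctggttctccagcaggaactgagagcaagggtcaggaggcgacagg
KCNJ14: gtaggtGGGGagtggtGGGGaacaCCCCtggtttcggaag
The KCNMB3 window held 48.7% G and C, no run of GGGG and 1 of CCCC, with a coding-strand skew of 0.25. The KCNJ14 window as a whole held 59.7% G and C, 7 G runs and 2 C runs. A run of GGGG or CCCC is common in such windows: 91.4% of the channel windows and 93.5% of all protein-coding windows held one, counting both strands. The median window held 63.0% G and C for channel genes and 62.3% for all.

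Lists of related genes were counted the same way. A list of 14 channel genes known from epithelia was picked by hand from the 141, with earlier results known, and is not complete. Of these, 13 held a peak, where 87 of all 141 channel genes did. By library they numbered 9 and 7 in the control pair and 4 and 6 in exp. KCNMA1 and SCNN1B were in all 4 libraries, and KCNK5, KCNQ1 and CACNB3 in both controls only. Of 78 genes for other ion channels, none of them in the 141, 52 held a peak, with 34 and 34 in the control pair and 24 and 21 in exp. Among them 9 were in all 4 libraries, including RYR1 and RYR2, the calcium release channels of muscle, with 13, 5, 2 and 3 and 3, 5, 4 and 2 peaks. In both controls only were 5, and none were in both exp libraries only. For comparison, 8430 of the 20056 protein-coding genes of RefSeq (42.0%) held a peak, and of the protein-coding genes with one 12.2% were in all 4 libraries, 8.86% in both controls only and 1.29% in both exp libraries only. Of 16 genes whose products bind or traffic these channels, 11 held a peak, with 8 and 7 in the control pair and 7 and 6 in exp, and CNTNAP2 led with 7, 14, 5 and 5 peaks.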

How the data were processed

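Sample titles gave the groups and the replicate numbers. Per the labels' protocols, DNA was sonicated, precipitated with S9.6 and amplified, and an IgG aliquot and a hybrid spike-in, not analysed here, were made too. Per the submitters' processing notes, the tools were Bowtie2, MACS2, DiffBind, cutadapt and FastQC and the build GRCh38 (hg38), with versions and settings not given in the sources used. The deposited lists hold 1 library each, not pooled. Per the file headers they give DRIP and input read counts over each peak without normalization, a fold enrichment (a ratio against a local Poisson background), −log10 p-values and q-values, and a GC skew score. Each library was counted over its own peaks only, and library totals were not used.

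The members and gene lists were chosen with earlier results of these data known. Gene lengths and promoter windows came from RefSeq (GRCh38.p14); all 87 member names and 96.6% of protein-coding names matched. The skew score was taken to refer to the reference strand: over peaks lying on promoter windows it correlated with the window's reference-strand skew (r = 0.865 for 92 plus-strand and 0.875 for 118 minus-strand cases). Library values were compared by exact two-sided permutation tests, and genes and regions (peaks merged at 1 bp of overlap) were sorted by which libraries held them. edgeR 4.0.16 (glmQLFit, glmQLFTest, Benjamini-Hochberg over 1370 regions, TMM factors from width-scaled counts) tested DRIP counts and was tested on simulated data; DESeq2 1.42.0 was an alternative. Each count table enters only where every library has 1 peak, which leaves out regions lost by a group. Other tools were Python 3.11.15, pandas 2.3.3, numpy 2.4.6, scipy 1.17.1 and R 4.3.3.

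Genes were named by rule: those in all 4 libraries, the 10 with most peaks, the 6 strongest control-only and exp-only, those with promoter or terminator peaks in at least 2 libraries, the 6 densest with at least 4 peaks, and the 8 strongest regions held by all 4 libraries. CACNA1G, KCNIP1, KCNIP3, KCNMB1, KCNT1, SCNN1A, KCNMB3, KCNJ14, the sodium channel genes, the genes without a peak and genes outside the family were chosen after their values were seen. Not every gene taken by this rule is reported. Alternatives were stricter q thresholds, equal peak numbers, more DRIP than input reads, pore-forming genes only, RefSeq overlap, reciprocal overlap and leaving out each library. Samples of equal replicate number did not deviate together (r = -0.0832 over 1370 regions), and nothing in the labels pairs them.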

Additional observations from a re-analysis of the deposited data

How the results depend on the processing

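The exp to control ratios of channel peaks, genes with a peak and bases covered were below 1 in every setting tried. With equal peak numbers they were 0.825, 0.964 and 0.743, and the exact permutation p was 0.667 for peaks and for genes. Ratios of peaks per Mb and of promoter or terminator peaks stayed below 1 too. Neither of these was tried with equal peak numbers or a stricter q, and promoter or terminator peaks only by leaving out each library. edgeR, DESeq2 and the fits with a count filter or without width offset called 0 channel regions. With −log10 q of at least 5, control-only, exp-only and shared genes numbered 0, 0 and 3 (from 8, 4 and 18) and regions 2, 0 and 1 (from 13, 5 and 16). With at least 2, exp-only genes numbered 1 and regions 3, and the skew difference of -0.02 turned to 0.00163. Pore-forming genes alone gave 2 exp-only and 11 shared genes, 3 exp-only and 8 shared regions, and turned the share difference of 0.107 points to -0.00641. RefSeq overlap gave 5 control-only genes, reciprocal overlap of 50% gave 8 control-only and 10 shared regions, and leaving out CACNG6, CACNG7 and CACNG8, chosen after seeing the data, 9 shared regions. The cause was not tested; stricter thresholds hold fewer peaks by construction.

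Leaving out each library in turn gave ratios of 0.476 to 0.699 for peaks and peaks per Mb, 0.704 to 0.796 for genes, 0.478 to 0.678 for bases and 0.148 to 0.333 for promoter or terminator peaks (for peaks per Mb, promoter or terminator peaks and skew, added after seeing the data). The share difference ran from -0.205 (without control 2) to 0.419 (without control 1) and was -0.168 without exp 2. The skew difference ran from -0.104 (without exp 2) to 0.0581 (without exp 1). Genes numbered 11 to 23 control-only, 6 to 10 exp-only and 20 to 22 shared, and regions 15 to 123, 6 to 47 and 17 to 22; the highest control-only counts were without control 2 and the highest exp-only counts without exp 1, where a single library defines the group. With the replicate number as a block, the pairs differed by -90 and -31 channel peaks (exact sign-flip p = 0.5, the smallest possible, ratio 0.566), and edgeR with the replicate block called 0 channel regions. Without exp 1, edgeR called 3 regions in all, none in a channel gene. Without a width offset the median log2 fold change of the 14 channel regions was -0.37. Counts of DRIP reads per peak limit every single peak, and 2 libraries a group limit every test.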

Other observations

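Antisense RNA genes named after channel genes lie outside the protein-coding set and took a few further peaks. CACNA1C-AS3 held 1 in exp 2, and KCNMA1-AS3 and KCNK15-AS1 held 1 each in exp 1. Whether the strand of such peaks belongs to the channel gene or its partner cannot be told apart in these files.

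By chromosome, channel peaks were concentrated on chromosome 19, where 10 of 11 channel genes held 127 peaks, of which CACNA1A, CACNG6, CACNG7 and CACNG8 held 111 and the other 7 genes 16. Chromosome 2 carried 16 channel genes with 11 peaks in all, and the 3 channel genes of the X chromosome held none. On chromosome 11, 12 channel genes held 7 and 9 peaks in the control pair and 1 and 0 in exp, where all its protein-coding genes held 487, 459, 265 and 221. On chromosome 3, 10 channel genes held 2, 4, 8 and 2 peaks, with exp 1 the highest, where all its protein-coding genes held 611, 684, 388 and 311. These chromosomes were picked after their counts were seen, and the differences were not tested.

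The median fold enrichment that the authors deposited for channel peaks was 4.03 and 3.87 in the control pair and 4.13 and 4.08 in exp. DRIP reads per input read over channel peaks were 4.64, 3.78, 4.35 and 3.56, so the groups overlapped, while over all protein-coding peaks they were 3.89 and 3.04 in the control pair and 2.97 and 2.41 in exp.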
